A study of Mus musculus with 12 samples.

Results

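The comparison described here sets all 6 libraries of mice given polyIC, a synthetic double-stranded RNA, against all 6 libraries of mice not given it. Members were taken from the labels: the polyIC group (3 libraries) and the combination group (3 libraries) against the control group (3 libraries) and the antiPDL1 group (3 libraries), which together are 12 of the 12 libraries of the series. An antibody to PD-L1, present or absent, was the second term of a 2 by 2 additive model, so each effect of polyIC given below is an average over mice with and without that antibody.

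RNA was measured by stranded mRNA sequencing in liver cells pulled out with magnetic beads through CD45, the pan-leukocyte surface phosphatase. All mice were C57BL/6, and all, controls included, had the oncogenes c-Myc and N-ras (human) delivered to the liver on day 0 by hydrodynamic transfection. PolyIC at 4 mg/kg, or PBS in its place, went into the abdominal cavity on days 14, 16, 18, 20 and 22. The antibody at 200 µg, or 200 µg of IgG in its place, was given on days 17, 19 and 21. Control mice thus had PBS with IgG, polyIC mice polyIC with IgG, antiPDL1 mice PBS with the antibody, and combination mice polyIC with the antibody. Mice were killed on day 24 according to the treatment protocol, but the label for the time point gives day 22. Replicates are numbered 0 to 2 in each group, and no label ties them to separate mice. The p-values therefore measure the spread between these libraries, which may be technical. No group without the oncogenes was analysed here.

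PolyIC is recognised by the endosomal receptor TLR3 and by the cytosolic helicases MDA5 and RIG-I, whose signals induce type I interferon, interferon-stimulated genes, dendritic cell maturation and help for killer lymphocytes. The liver holds a large population of resident macrophages, the Kupffer cells, beside T cells, NK cells, B cells and dendritic cells. PD-L1 on myeloid and tumour cells engages PD-1 on T cells and restrains them.

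Values are FPKM, fragments scaled by transcript length and library size, which can be compared between genes. Ptprc, the gene for CD45, was at 371 to 487 FPKM in the libraries with polyIC and at 206 to 340 FPKM in those without, with no overlap (log2 change 0.61 ± 0.12 (SE), adjusted p = 0.00881 in limma). Alb, the hepatocyte gene for albumin, was nevertheless at 77.4 to 1601 FPKM across the 12 libraries, and RNA of liver parenchyma was thus present in every library. Mir6236, a small RNA gene, held 15.8% to 20.6% of the summed FPKM with polyIC and 4.97% to 15.7% without, again with no overlap. With small RNA genes left out and the totals made equal, 855 genes were higher and 1288 lower, so that 39.9% of the called genes were higher against 48.8% with them in. Libraries of a group did not always lie together: on the first principal component, which carried 44.8% of the variance, the controls lay at -69.0, -49.2 and -22.5, and antiPDL1 libraries at 26.5, 10.4 and -38.1. Control replicate 2 and antiPDL1 replicate 2 stood apart from the other libraries of their groups, and results are also given without both. In bulk RNA, fewer cells of a type and less RNA per cell cannot be told apart.

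PolyIC changed 1878 of 11978 genes tested, 916 higher and 962 lower. These are 15.7% of the genes, 7.65% higher and 8.03% lower (limma on log2(FPKM + 1), Benjamini-Hochberg adjusted p under 0.05). The median size of the called changes was 0.70 on the log2 scale for higher genes and 0.76 for lower ones. A change of at least 1 was reached by 230 higher and 272 lower genes, and of at least 2 by 32 and 39. Among the called genes, 183 higher and 124 lower ones had no overlap between the 6 libraries with polyIC and the 6 without, 1.53% and 1.04% of the genes tested and 2.56% together. Over all genes, called or not, 197 (1.64%) were higher without overlap and 127 (1.06%) lower, 324 (2.7%) together. The 12 largest rises and 12 largest falls named below were chosen among called genes without overlap, so their lack of overlap is no finding. An unadjusted p under 0.05 was reached by 3864 genes, 32.3%. The antibody term of the same model, given as background, called 1084 genes (9.05%), 323 higher (2.7%) and 761 lower (6.35%), and 3647 (30.4%) had an unadjusted p under 0.05. Over all genes the median change was 0.0085, and 51.1% of genes had a change above 0.

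How many genes passed depended on single libraries. Leaving out 1 library gave 918 without control replicate 0, 921 without control replicate 1, 2958 without control replicate 2, 725 without polyIC replicate 0, 1175 without polyIC replicate 1 and 1066 without polyIC replicate 2. It gave 1236 without antiPDL1 replicate 2, 914 without combination replicate 1 and 1164 without combination replicate 2. With control replicate 2 and antiPDL1 replicate 2 both left out, 967 genes were higher and 1855 lower. With 1 library left out, 411 to 1238 of all genes were higher and 314 to 1831 lower. The fewest lower genes were found without polyIC replicate 0 and the most without control replicate 2. Counts of list members with libraries left out, given below, are to be read beside these totals.

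**Figure D1:**
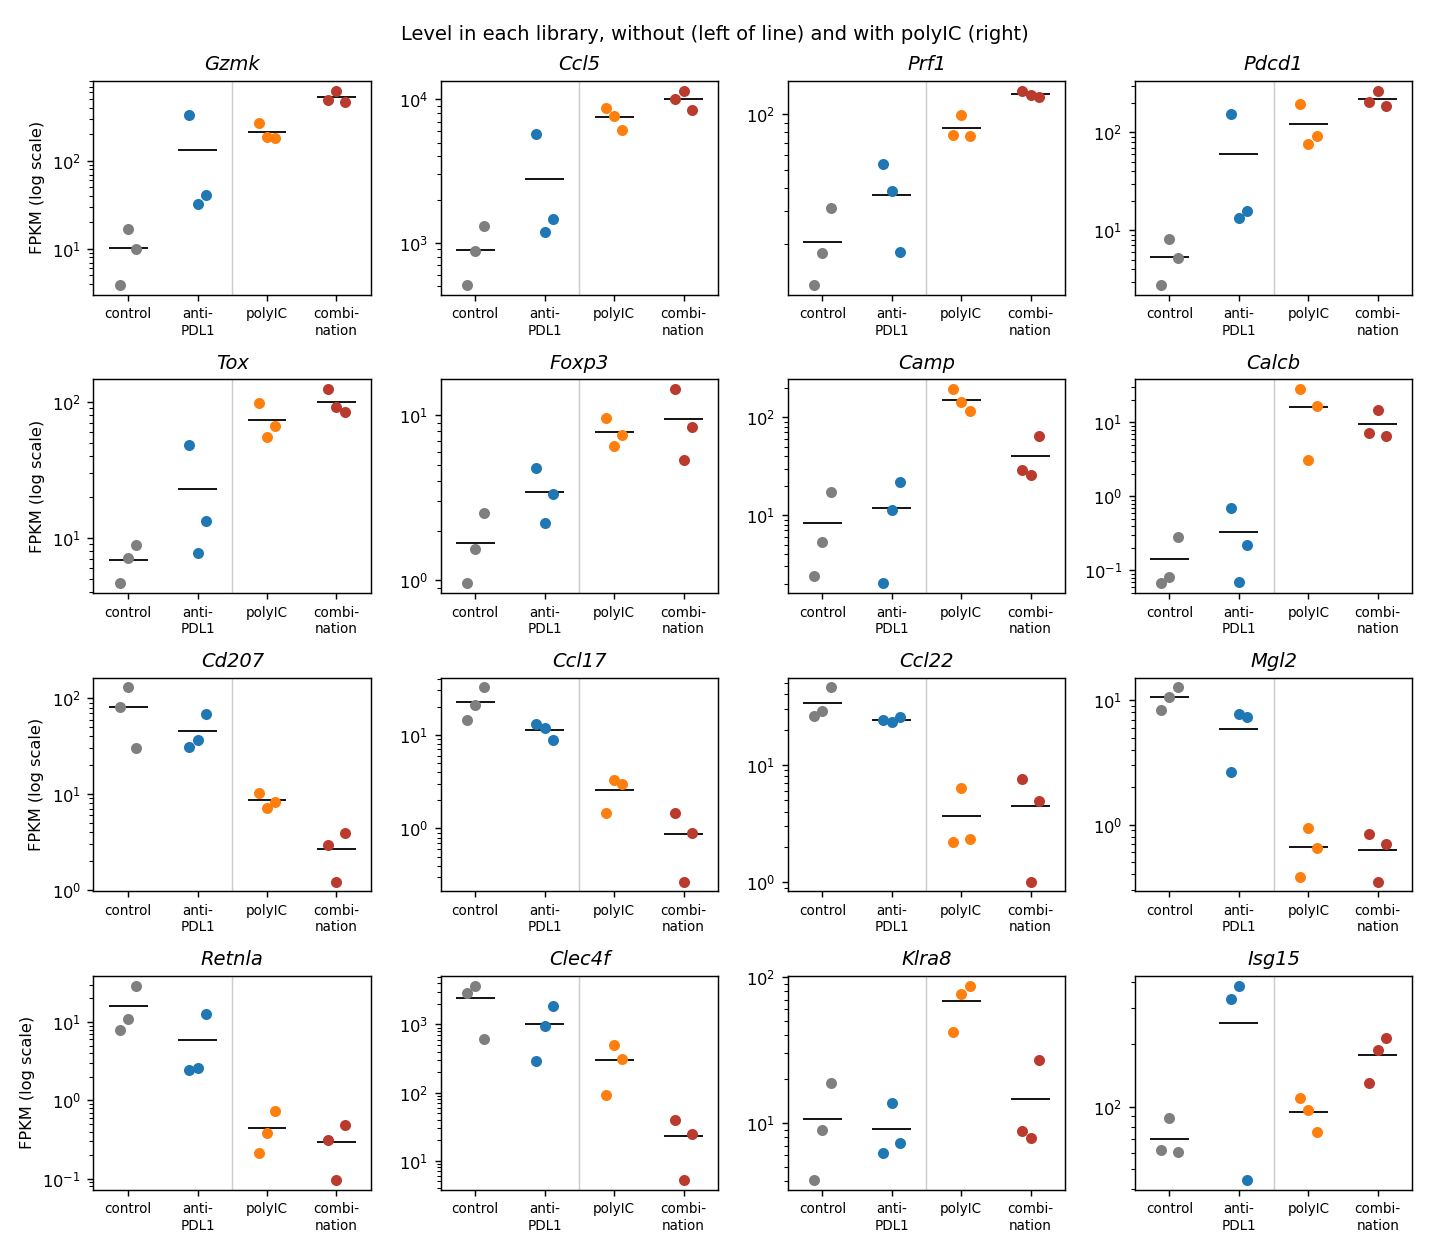
Level of 16 genes in each of the 12 libraries (FPKM, log axis; points are libraries, bars are group means of 3), with the control and antiPDL1 groups left of the grey line and the polyIC and combination groups right of it. Ccl17 lay at 0.270 to 3.31 FPKM with polyIC and at 8.76 to 32.2 without, whereas Isg15 overlapped.

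Of the genes that sense double-stranded RNA 1 of 25 passed, of the interferon-stimulated genes 3 of 33 and of interferon ligands, receptors and signalling genes 2 of 16, beside 15.7% of all genes. Tlr3 was at 5.18, 10.7 and 15 FPKM (lowest, median and highest) in the 6 libraries with polyIC and at 7.93, 15.9 and 19.5 without it, and the groups overlapped (log2 change -0.55 ± 0.25, adjusted p = 0.146). Ifih1, which encodes MDA5, was at 15.3, 18.4 and 23.0 FPKM with polyIC and 9.48, 18.7 and 27.5 without (0.02 ± 0.19, adjusted p = 0.943). Ddx58, which encodes RIG-I, had a change of -0.08 ± 0.11 (adjusted p = 0.64). Of 25 double-stranded RNA sensing genes tested, 0 rose and 1 fell in limma, with a median of -0.08 and an unadjusted p under 0.05 for 1 higher and 5 lower genes. The gene that fell was Oas2, an antiviral oligoadenylate synthetase, at 3.40, 4.47 and 5.05 FPKM with polyIC and 5.15, 6.96 and 11.3 without, which just separated the groups (-0.63 ± 0.18, adjusted p = 0.0363). Its call was lost without any polyIC replicate, without control replicate 0 or 1, without antiPDL1 replicate 1 and without combination replicate 0 or 1, with adjusted p up to 0.136 over all alternatives. The number of sensing genes that fell was 3 without control replicate 2, 2 without antiPDL1 replicate 2 and 5 without both, and 1 rose without antiPDL1 replicate 0.

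Ifnb1, the gene for interferon beta, lay below the filter at 0 to 0.170 FPKM in all libraries. Isg15, a ubiquitin-like interferon-stimulated gene, was at 75.3, 119.8 and 215 FPKM with polyIC and 44.4, 74.9 and 382 without. Its 2 highest libraries were antiPDL1 replicates 0 and 1, so the groups overlapped, and the change was 0.19 ± 0.43 (adjusted p = 0.791). Ifit1, an RNA-binding antiviral gene, was at 19.0, 20.1 and 26.1 FPKM with polyIC and 10.0, 12.5 and 44.2 without (0.25 ± 0.28, adjusted p = 0.571). Of 33 interferon-stimulated genes tested, 1 rose and 2 fell, and the median change was -0.15. Ifi44 was the one that rose (0.62 ± 0.18, adjusted p = 0.0379), but its call was lost without control replicate 0 or 1, polyIC replicate 0, 1 or 2, antiPDL1 replicate 0 or 2, or combination replicate 0 or 2. Slfn5, a Schlafen family gene, was at 24.8, 30.2 and 35.6 FPKM with polyIC and 35.8, 50.5 and 65.3 without, which did not overlap by a narrow margin (-0.73 ± 0.14, adjusted p = 0.00885). Bst2, the gene for tetherin, which also marks plasmacytoid dendritic cells, changed by -0.75 ± 0.18 (adjusted p = 0.0181). Without control replicate 2, 6 of the 33 fell, and without control replicate 2 and antiPDL1 replicate 2 together, 14 fell and 0 rose, with a median of -0.38. Cxcl9, Cxcl10 and Cd274, which encode a pair of CXCR3 chemokines and PD-L1 itself, had changes of 0.43 ± 0.35, 0.14 ± 0.37 and -0.06 ± 0.24, and none passed. Among 30 genes of the interferon gamma response and MHC class I, 0 passed in limma, with a median of 0.23, 23 of 30 above 0 and an unadjusted p under 0.05 for 3 higher and 0 lower genes. In that list 4 rose without antiPDL1 replicate 1 and 1 without antiPDL1 replicate 0.

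Many interferon-stimulated genes carry a promoter element for interferon-activated factors, and stretches of 2 such promoters, of genes that did not pass, are shown to make the element visible. RefSeq promoters (GRCm38.p6; 250 bases before to 50 bases after the start, 300 in all) were matched by symbol for 9120 of the 11978 genes tested. An ISRE-type match, GAAANNGAAA on either strand, was present in 12 of 24 interferon-stimulated genes that had a promoter, against 3.49% of all promoters in the table. It was present in 3.41% of the promoters of higher genes and 1.77% of those of lower genes. In the stretches below capitals mark the match, and for the minus strand the sequence is given in the direction of transcription. The first is from the plus strand at chr19:34640774-34640843, and another match lies in lower case upstream of the one in capitals. The second is from the minus strand at chr4:156200857-156200926, where 3 matches overlap and the most upstream is in capitals.
Ifit1: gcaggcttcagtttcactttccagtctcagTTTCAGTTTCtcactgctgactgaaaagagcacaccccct
Isg15: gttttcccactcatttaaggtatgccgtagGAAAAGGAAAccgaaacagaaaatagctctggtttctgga
These letters describe the 2 windows and carry no measurement of binding.

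Genes of cytotoxic lymphocytes had the highest median change of the 35 lists described. Gzmk, a granule protease of effector T cells, was at 183, 368 and 628 FPKM with polyIC and 3.89, 24.6 and 329 without. The 329 was antiPDL1 replicate 0, which overlapped the polyIC group, while the other 5 libraries without polyIC were at 40.6 or below (log2 change 3.59 ± 0.55, adjusted p = 0.00397 in limma). Gzmb, the apoptosis-inducing granzyme, was at 509, 809 and 1587 FPKM with polyIC and 40.1, 98.8 and 529.8 without (2.76 ± 0.40, adjusted p = 0.0031), again with overlap through antiPDL1 replicate 0. Prf1, the pore-forming perforin, was at 76.3, 111 and 134 FPKM against 12.1, 24.8 and 54.2, and the groups did not overlap (1.98 ± 0.26, adjusted p = 0.00249). Gzma did not overlap either, at 920.4, 1551 and 3147 FPKM against 91.9, 287 and 610.1 (2.57 ± 0.46, adjusted p = 0.00678). The rule for naming Prf1 and Gzma required that lack of overlap. Ccl5, a chemokine stored by memory and killer T cells, was at 6091, 8615 and 11479 FPKM with polyIC and 509, 1249 and 5743 without (2.67 ± 0.39, adjusted p = 0.0031). Ifng, the gene for interferon gamma, was at 21.6, 58.9 and 151 FPKM against 8.52, 17.9 and 37.8. The polyIC group overlapped the libraries without polyIC, and the 3 combination libraries were highest (1.57 ± 0.25, adjusted p = 0.00492). In all, 20 of 27 cytotoxic effector genes tested rose and 0 fell, with a median of 1.57 beside 0.0085 for all genes. Of all genes 7.65% rose and 8.03% fell.

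T cell genes rose in 19 of 24, beside 7.65% of all genes. Cd3e, a signalling chain of the receptor, was at 164, 276 and 345 FPKM with polyIC and 40.4, 79.9 and 214 without (1.56 ± 0.30, adjusted p = 0.00819), and antiPDL1 replicate 0 overlapped the polyIC libraries. Cd8a, the coreceptor of killer T cells, was at 131, 175 and 218 FPKM against 12.1, 36.0 and 177 (2.26 ± 0.42, adjusted p = 0.00748), and only antiPDL1 replicate 0 reached the range of the polyIC libraries. Cd4, the helper T cell coreceptor, was at 36.9, 61.8 and 127 FPKM against 26.1, 42.8 and 61.8 and did not pass (0.59 ± 0.26, adjusted p = 0.143). Of the 24 genes 0 fell, the median was 1.23, and those that rose included the costimulatory receptor gene Cd27 (2.04 ± 0.33), the thymocyte selection gene Themis (1.69 ± 0.28) and the adaptor gene Sh2d2a (1.99 ± 0.32). Of 14 naive and memory T cell genes 0 rose and 3 fell, with a median of -0.22, beside 7.65% and 8.03% of all genes. The lower ones were Ccr7, the lymph node homing receptor gene (-1.0 ± 0.25), Klf2 (-0.68 ± 0.20) and Il6ra (-0.51 ± 0.13). These 3 calls fell to 0 without polyIC replicate 0, polyIC replicate 2 or combination replicate 1 and to 1 without control replicate 0, control replicate 1 or combination replicate 2. Klf2 alone lost its call without any library but antiPDL1 replicate 0 and combination replicate 0, and also without control replicate 2 and antiPDL1 replicate 2 together.

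Genes of inhibitory receptors and exhaustion rose in 16 of 22, beside 7.65% of all genes. Pdcd1, which encodes PD-1, was at 76.3, 193 and 267 FPKM with polyIC and 2.77, 10.7 and 153 without. The 153 was antiPDL1 replicate 0, and the other 5 libraries without polyIC did not exceed 15.7 (3.48 ± 0.56, adjusted p = 0.00476). Tigit, an inhibitory receptor that competes for CD155, was at 104, 201 and 361 FPKM against 6.65, 17.1 and 149.8 (3.06 ± 0.43, adjusted p = 0.00282). Ctla4, which competes with CD28 for its ligands, was at 18.8, 50.8 and 131 FPKM against 1.64, 5.34 and 44.7 (2.75 ± 0.40, adjusted p = 0.0031). Tox, a nuclear factor of chronically stimulated T cells, separated the groups completely, at 55.2, 87.2 and 123 FPKM against 4.64, 8.32 and 48.0 (2.83 ± 0.36, adjusted p = 0.00249). Nr4a2, a nuclear receptor gene induced by receptor signalling, also separated them, at 9.79, 15.6 and 24.9 FPKM against 0.981, 1.10 and 9.27 (2.57 ± 0.36, adjusted p = 0.00252). The rule for naming Tox and Nr4a2 required that separation. Of the 22 genes 0 fell, and the median was 1.18.

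Regulatory T cell genes and some T cell cytokines were higher with polyIC. Foxp3, the factor that defines regulatory T cells, was at 5.34, 8.04 and 14.4 FPKM with polyIC and 0.958, 2.39 and 4.77 without, with no overlap (1.46 ± 0.24, adjusted p = 0.00511). Of 13 regulatory T cell genes 8 rose and 0 fell (median 0.99), beside 7.65% and 8.03% of all genes. Those that rose included the costimulatory receptor genes Tnfrsf9 (2.00 ± 0.34) and Tnfrsf4 (1.88 ± 0.28) and the chemokine receptor gene Ccr8 (1.51 ± 0.34). Il10, an anti-inflammatory cytokine, was at 4.94, 19.5 and 79.2 FPKM with polyIC and 0.924, 2.30 and 8.24 without (2.28 ± 0.46, adjusted p = 0.00997). The 3 combination libraries, at 30.9, 79.2 and 42.6 FPKM, were the highest, and polyIC libraries at 4.94 to 8.05 overlapped those without polyIC. Il21, a helper T cell cytokine, had the same order of groups, with 9.96 to 24.2 FPKM in the combination, 1.52 to 2.95 with polyIC alone and 0.163 to 2.88 without polyIC (1.90 ± 0.31, adjusted p = 0.00497).

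Cell cycle genes rose in 18 of 30 and fell in 0, with a median of 0.78, beside 7.65% and 8.03% of all genes. Kif11, a spindle motor, was at 17.0, 22.9 and 30.2 FPKM with polyIC and 4.70, 6.82 and 18.7 without (1.30 ± 0.22, adjusted p = 0.00598), where the only overlap came from an antiPDL1 library. Top2a, the topoisomerase of dividing cells, changed by 1.18 ± 0.22 and the proliferation marker Mki67 by 0.76 ± 0.18 (adjusted p = 0.00768 and 0.018). The count of 18 fell to 11 without control replicate 0, 9 without control replicate 1, 7 without polyIC replicate 0, and 10 without polyIC replicate 1 or combination replicate 1. In the same order, 487, 493, 411, 564 and 508 of all genes were higher, against 916 with all libraries. Mki67 itself lost its call without polyIC replicate 0.

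NK cell genes were called in 12 of 23 without antibody, where 3.63% of all genes were called, and in 0 of 23 with it, where 0.125% of all genes were called, so the 0 is near the background. Klra8, an activating Ly49 receptor, was at 41.9, 76.1 and 87.0 FPKM in the polyIC group and at 7.88 to 27.2 in the combination, against 4.07 to 18.7 in the libraries without polyIC. Only the polyIC group stood clear of the libraries without polyIC (1.61 ± 0.49 on average, adjusted p = 0.0446; 2.73 without antibody, 0.49 with it). Sh2d1b2, an adaptor of NK cell receptors, was at 3.68 to 8.61 FPKM with polyIC alone, 0.408 to 1.26 in the combination and 0 to 0.493 without polyIC (1.58 ± 0.33, adjusted p = 0.0113). Ncr1, the gene for the NK receptor NKp46, was at 73.0, 145 and 106 FPKM in the polyIC group and 11.3 to 40.9 in the combination, against 12.3 to 48.4 without polyIC (0.69 ± 0.46, adjusted p = 0.321). In the additive model 8 of 23 NK cell genes rose and 0 fell, beside 7.65% and 8.03% of all genes. The medians were 1.70 without antibody and 0.16 with it. The test of that difference did not pass for any of these genes after adjustment over all genes, and its unadjusted p was 0.0136 for Klra8, 0.000803 for Sh2d1b2 and 0.0153 for Ncr1. Ly49 genes are near-identical copies, so reads may be divided between them and each single value is uncertain. The count of 8 fell to 2 without control replicate 0 or 1, any polyIC replicate, or combination replicate 2, and to 2 with the level of hepatocyte markers as a covariate. Klra8 lost its call in each of these cases and without antiPDL1 replicate 0 or 2. With control replicate 0 or 1, any polyIC replicate or combination replicate 2 left out, 411 to 664 of all genes were higher, against 916 with all libraries.

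**Figure D2:**
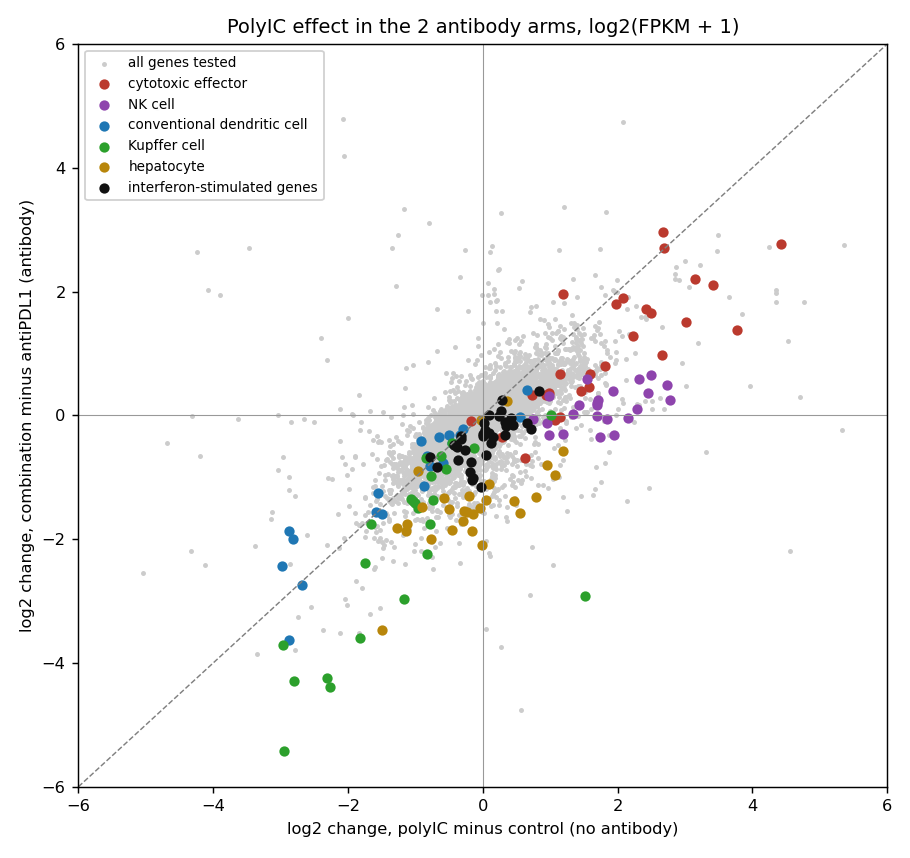
Effect of polyIC on each of 11978 genes without antibody (horizontal, polyIC minus control) and with antibody (vertical, combination minus antiPDL1), both as log2 changes, with the members of 6 gene lists in colour and the line of equal effects dashed. NK cell genes lie to the right near the horizontal axis (medians 1.70 and 0.16), cytotoxic genes in the upper right (1.81 and 0.97), hepatocyte genes below it (-0.19 and -1.50).

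Of 22 neutrophil genes 7 rose and 0 fell, with a median of 0.62, beside 7.65% and 8.03% of all genes. Camp, the antimicrobial cathelicidin of secondary granules, was at 25.5, 91.0 and 194 FPKM with polyIC and 2.02, 8.35 and 21.9 without (3.17 ± 0.60, adjusted p = 0.00793). It had no overlap, which the rule for naming it required. Ngp, another granule protein gene, was at 28.6, 103 and 272 FPKM against 2.13, 9.80 and 33.5 (3.19 ± 0.62, adjusted p = 0.00881), and Ltf, lactoferrin, changed by 2.74 ± 0.50. Lcn2, an iron-chelating granule protein also made by epithelia in the acute phase, was at 41.8, 70.4 and 141 FPKM against 12.5, 22.2 and 34.3 (1.64 ± 0.30, adjusted p = 0.00714). For Camp, Ngp and Lcn2 the group means were higher in the polyIC group than in the combination, for example 152 ± 39.1 and 39.9 ± 21.8 FPKM for Camp (SD, n = 3 each). The other genes of the list that rose were the granule genes Mmp8, Elane and Prtn3. The myeloperoxidase gene Mpo (1.05 ± 0.33, adjusted p = 0.0501) and the gelatinase gene Mmp9 (-0.49 ± 0.29, adjusted p = 0.259) did not pass. Both were chosen after their values were seen. The neutrophil genes S100a8, S100a9, Csf3r and Cxcr2 did not pass either.

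Monocyte genes were mixed, with 5 of 21 higher and 2 lower, beside 7.65% and 8.03% of all genes. The lower count is thus near the share of all genes. Cx3cr1, the fractalkine receptor of patrolling monocytes, was at 40.6, 49.3 and 63.9 FPKM with polyIC and 16.9, 20.6 and 40.5 without, which narrowly did not overlap (1.14 ± 0.20, adjusted p = 0.00644). Spn, which encodes CD43, rose by 1.04 ± 0.19 on the log2 scale, and Csf1r, the receptor for the macrophage growth factor CSF1, was at 199.7, 277 and 401 FPKM against 337, 648 and 1139.7 (-1.18 ± 0.30, adjusted p = 0.0243). The call of Csf1r was lost without control replicate 0 or 1, polyIC replicate 0 or 2, antiPDL1 replicate 2, or combination replicate 1 or 2. Of the monocyte counts, 5 fell to 2 without control replicate 0 or 1, any polyIC replicate or antiPDL1 replicate 2, and to 3 without combination replicate 1 or 2. The 2 lower ones, Csf1r and the lysozyme gene Lyz1, fell to 0 in number without control replicate 1, polyIC replicate 0 or 2, or combination replicate 1 or 2, and to 1 without control replicate 0 or antiPDL1 replicate 1 or 2.

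Genes of resident macrophages had the lowest median of the lists, and Clec4f had the lowest change of all genes tested. Clec4f, a lectin found on Kupffer cells, was at 5.22, 65.6 and 493 FPKM with polyIC and 291, 1392 and 3683 without. Combination libraries were lowest, at 5.22 to 39.5, and antiPDL1 replicate 0 at 291 overlapped the polyIC group (log2 change -4.18 ± 0.73, adjusted p = 0.00644). Timd4, a receptor for dying cells, was at 2.79, 12.1 and 54.2 FPKM against 39.6, 228 and 289 (-3.27 ± 0.62, adjusted p = 0.00793). Vsig4, a complement receptor, was at 7.91, 55.9 and 291 FPKM against 113, 879 and 1464 (-3.33 ± 0.68, adjusted p = 0.0102), and Cd163, the haemoglobin scavenger receptor, changed by -3.34 ± 0.62. The summed level of the Kupffer cell list was 2204 to 6219 FPKM with polyIC and 4782 to 21766 without. Of 24 Kupffer cell genes 0 rose and 14 fell, with a median of -1.22, beside 7.65% and 8.03% of all genes. The count was 7 without control replicate 0, control replicate 1, polyIC replicate 0, combination replicate 1 or combination replicate 2, 8 without antiPDL1 replicate 2, and 9 without polyIC replicate 2 or antiPDL1 replicate 1. It was 20 without control replicate 2 and antiPDL1 replicate 2 together, and 4 with the level of hepatocyte markers as a covariate. Of all genes 962 were lower in the main model, 1855 without those 2 libraries, 158 with the covariate and 314 to 1831 with 1 library left out. Genes of repair and tumour-associated macrophages fell in 6 of 19 and rose in 0, beside 8.03% and 7.65% of all genes. Those that fell included the mannose receptor gene Mrc1 (-2.05 ± 0.49), whose call was lost without polyIC replicate 0. That count of 6 was 2 without polyIC replicate 0 and 3 without control replicate 0, control replicate 1, combination replicate 1 or combination replicate 2.

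Conventional dendritic cell genes were called lower in 8 of 20 without antibody, against 1.17% of all genes, and in 3 of 20 with it, against 0.025% of all genes. Their medians in the arms were -0.84 and -0.79. Ccl17, a chemokine for CCR4-bearing T cells, had the smallest adjusted p of all genes tested. It was at 0.270, 1.46 and 3.31 FPKM with polyIC and 8.76, 13.8 and 32.2 without, with no overlap (-2.71 ± 0.22, adjusted p = 0.000395). Ccl22, the other ligand of CCR4, was at 1.01, 3.63 and 7.62 FPKM against 23.2, 25.9 and 45.9, also with no overlap (-2.71 ± 0.33, adjusted p = 0.00249). Cd207, which encodes langerin, a lectin of Langerhans cells and other dendritic cells, was at 1.22, 5.55 and 10.3 FPKM against 30.6, 52.1 and 129.9 (-3.25 ± 0.34, adjusted p = 0.00162). Mgl2, which encodes the lectin CD301b, was at 0.348, 0.670 and 0.943 FPKM against 2.64, 8.14 and 12.7 (-2.40 ± 0.24, adjusted p = 0.00115). Every library with polyIC was below every library without it for these 4 genes, which the rule for naming them required. Il12b, the p40 subunit of IL-12 and IL-23, was at 0.464, 1.11 and 2.21 FPKM against 3.44, 5.88 and 7.06 (-1.54 ± 0.21, adjusted p = 0.00252). Of 20 conventional dendritic cell genes 0 rose and 12 fell, with a median of -0.77, beside 7.65% and 8.03% of all genes. The list members Flt3, Zbtb46, Xcr1, Clec9a, Batf3, Irf8, Itgax and Traf1 did not pass, so the list did not fall as a whole. When any 1 library was left out, 9 to 13 fell. With the level of hepatocyte markers as a covariate 9 of the 20 fell.

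Genes linked to the cytokines IL-4, IL-5 and IL-13 were not a list of their own and moved in both directions. Retnla, a secreted protein of macrophages exposed to IL-4 or IL-13, was at 0.0964, 0.347 and 0.729 FPKM with polyIC and 2.44, 9.49 and 29.0 without (-2.74 ± 0.40, adjusted p = 0.0031). Ccl24, the eosinophil chemokine eotaxin-2, was at 5.19, 10.6 and 18.0 FPKM against 33.7, 117 and 176 (-3.0 ± 0.45, adjusted p = 0.00345). Siglecf, a surface lectin of eosinophils, was at 0.933, 1.30 and 2.15 FPKM against 2.33, 3.32 and 4.32 (-0.83 ± 0.12, adjusted p = 0.00282). None of these 3 genes overlapped between the groups, which the rule for naming Retnla and Ccl24 required. In the other direction, Chil3, a chitinase-like gene of monocytes and of macrophages exposed to IL-4, rose (1.90 ± 0.50, adjusted p = 0.028), as did Gata3, a transcription factor of type 2 lymphocytes among others (0.56 ± 0.17, adjusted p = 0.0431). Chil3 lost its call without control replicate 0 or 1, any polyIC replicate or antiPDL1 replicate 2, and Gata3 when any library other than control replicate 2 or antiPDL1 replicate 0 was left out. A STAT6-type match, TTCNNNNGAA, the spacing bound by the factor that IL-4 and IL-13 activate, was present in 3 of the 11 largest falls with a promoter and in 1 of the 7 largest rises with one. It was present in 6.99% of all promoters in the table, in 5.46% of those of lower genes and in 5.55% of those of higher genes, and in 5.37% of those of all genes tested. The stretches below are from the plus strand of GRCm38.p6, at chr16:48842434-48842503 for Retnla and chr8:94810269-94810338 for Ccl17, with the match in capitals.
Retnla: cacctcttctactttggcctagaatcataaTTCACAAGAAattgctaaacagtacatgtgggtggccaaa
Ccl17: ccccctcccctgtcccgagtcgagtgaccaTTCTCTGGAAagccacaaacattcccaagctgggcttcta
A match describes the letters of the window and carries no measurement of binding.

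Chemokines split in opposite directions, with 4 of 23 higher and 6 lower, beside 7.65% and 8.03% of all genes. The higher ones included Ccl3 and Ccl4, inflammatory chemokines of activated lymphocytes and macrophages, with changes of 2.82 ± 0.44 and 2.70 ± 0.48, beside Ccl5. The lower ones included Cxcl13, which draws B cells to follicles, at 0.198, 0.768 and 4.09 FPKM with polyIC and 7.23, 28.2 and 59.8 without (-3.60 ± 0.47, adjusted p = 0.00249). Cxcl13 had no overlap, which the rule for naming it required. Among inflammatory cytokine genes 3 of 18 rose and 4 fell, beside the same shares of all genes. Il6 was at 0.0667, 0.305 and 0.653 FPKM against 0.894, 1.70 and 2.93 and did not overlap (-0.99 ± 0.18, adjusted p = 0.00717). Il12b, described above with the dendritic cell genes, also fell. The remaining genes that fell were Il15 and Csf1, with changes of -0.76 ± 0.23 and -0.64 ± 0.19. Both Il15 and Csf1 lost their call without control replicate 0 or 1, polyIC replicate 0 or 2, antiPDL1 replicate 0 or 1, or combination replicate 1 or 2. Il15 also lost it without each of the other libraries except control replicate 2. The count of 4 became 7 without control replicate 2, and 2 without control replicate 1, polyIC replicate 0 or 2, antiPDL1 replicate 0 or 1, or combination replicate 1 or 2, and 9 without control replicate 2 and antiPDL1 replicate 2 together.

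B cell genes fell in 14 of 20 and rose in 0, with a median of -1.0, beside 8.03% and 7.65% of all genes. Cd79a, a signalling chain of the B cell receptor, was at 11.9, 35.9 and 67.6 FPKM with polyIC and 32.4, 79.6 and 235 without, with overlap (-1.27 ± 0.31, adjusted p = 0.02). Fcer2a, which encodes the IgE receptor CD23, was at 1.88, 7.19 and 17.6 FPKM against 7.0, 23.7 and 81.0 (-1.53 ± 0.36, adjusted p = 0.0171). The antibody term moved with these genes as well: the summed level of the B cell list was 853 to 2071 FPKM in control, 353 to 806 in antiPDL1, 496 to 768 in polyIC and 204 to 355 in the combination. The count of 14 was 5 without polyIC replicate 0, 6 without combination replicate 1, 8 without polyIC replicate 2 or antiPDL1 replicate 2, and 9 without control replicate 2 and antiPDL1 replicate 2 together. Over all genes 314 were lower without polyIC replicate 0 and 406 without combination replicate 1, against 962 with all libraries. Cd79a lost its call without polyIC replicate 0. Plasmacytoid dendritic cell genes, which share Spib with the B cell list, fell in 4 of 14 and rose in 0 (median -0.71), led by Klk1 (-1.50 ± 0.27). The marker gene Siglech did not pass, nor did Ccr9, Tcf4, Irf7, Pacsin1 or Runx2. The count of 4 was 2 without polyIC replicate 0 or combination replicate 1. MHC class II genes had a median of -0.46, with 1 of 10 lower, near the 8.03% of all genes. Cd74, the invariant chain, was left out because it was listed at 0 in 3 groups. The gene that fell was H2-DMb2, a subunit of the peptide exchange factor H2-DM (-0.69 ± 0.20). Its list had 0 lower without control replicate 1, any polyIC replicate or combination replicate 1 or 2, 2 without control replicate 0 or antiPDL1 replicate 2, and 5 without control replicate 2 and antiPDL1 replicate 2 together.

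**Figure D3:**
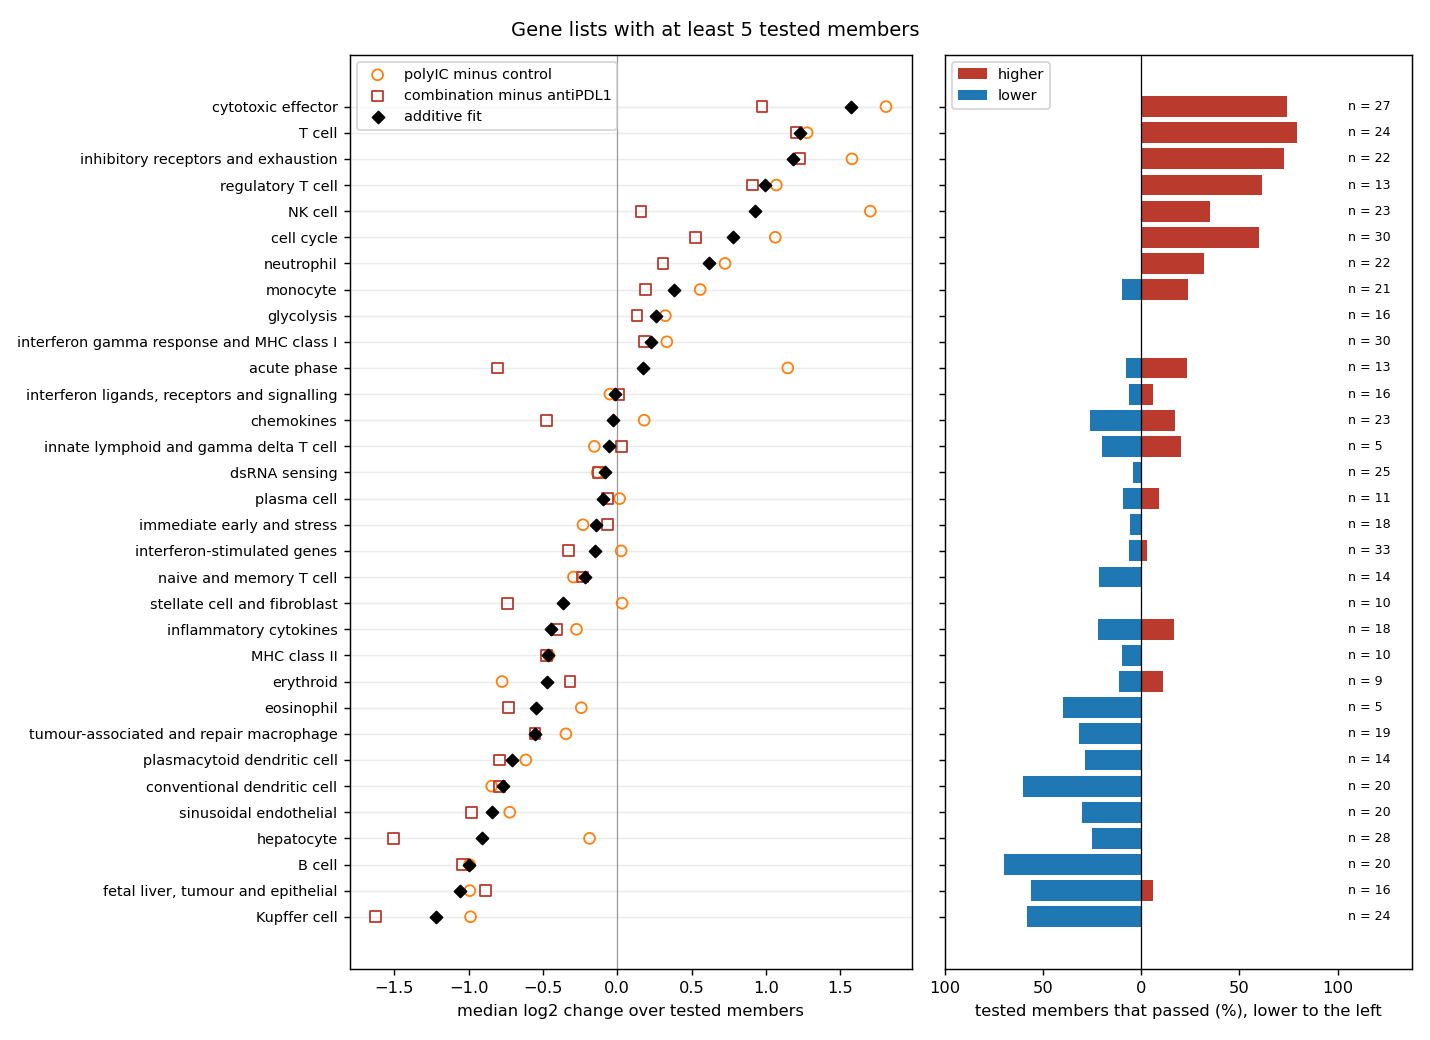
Gene lists with at least 5 tested members: left, the median log2 change with polyIC in the additive model (diamonds) and in each antibody arm (open symbols); right, the percentage of tested members that passed, higher in red and lower in blue, with the number tested. Cytotoxic, T cell and inhibitory receptor lists head the left panel with medians of 1.57, 1.23 and 1.18, and the Kupffer cell list ends it at -1.22.

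Among genes of liver cells other than immune cells, 7 of 28 hepatocyte genes and 6 of 20 sinusoidal endothelial genes fell, 0 of 10 stellate cell and fibroblast genes passed, and 1 of 3 cholangiocyte genes, Epcam, rose (0.68 ± 0.12). Of all genes 8.03% fell and 7.65% rose. The summed level of 28 hepatocyte genes was 2958 to 9985 FPKM in control, 1546 to 5524 in antiPDL1, 3654 to 4977 in polyIC and 612 to 935 in the combination. The combination libraries were lowest, and the polyIC group lay inside the range of the controls. Alb was at 77.4, 392 and 978 FPKM with polyIC and 124, 748 and 1601 without and did not pass (-0.91 ± 0.48, adjusted p = 0.209). Apoc1, an apolipoprotein that macrophages make as well, was at 57.2, 297 and 778 FPKM against 327, 1235 and 3316 (-2.47 ± 0.54, adjusted p = 0.0138), and the iron carrier gene Trf changed by -1.55 ± 0.32. Of the 28 genes 0 rose and 7 fell, with medians of -0.19 without antibody and -1.50 with it. The 7 became 14 without control replicate 2, and 4 without control replicate 0, control replicate 1, polyIC replicate 0 or combination replicate 1, and again 14 without control replicate 2 and antiPDL1 replicate 2 together. Sinusoidal endothelial genes fell in 6 of 20 (median -0.84), among them the scavenger receptor gene Stab2 (-1.86 ± 0.44), whose call was lost without polyIC replicate 0. This count was 16 without control replicate 2, 3 without polyIC replicate 1 or antiPDL1 replicate 2, 1 without polyIC replicate 0, and 2 without control replicate 0 or 1, polyIC replicate 2, antiPDL1 replicate 1, or combination replicate 1 or 2. Over all genes 1831 were lower without control replicate 2 and 314 without polyIC replicate 0, against 962 with all libraries.

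Genes of fetal liver, tumour and epithelium fell in 9 of 16, with a median of -1.06, and rose in 1, Lcn2, beside 8.03% and 7.65% of all genes. This list, like the others, was chosen with earlier results of these data known, so its count is no independent finding. Krt18, a keratin of hepatocytes and other epithelia, was at 1.28, 3.29 and 6.54 FPKM with polyIC and 3.09, 11.8 and 45.0 without (-1.66 ± 0.29, adjusted p = 0.00644). Igfbp1, a secreted binding protein for insulin-like growth factors, was at 0.811, 3.88 and 12.2 FPKM against 2.56, 30.5 and 119 (-2.41 ± 0.39, adjusted p = 0.00515). Sprr1a, a cornified envelope gene, was at 0.0341, 0.122 and 0.245 FPKM against 0.384, 3.96 and 35.2 (-2.43 ± 0.60, adjusted p = 0.0218). For these 3 genes the controls were highest and antiPDL1 libraries were also lower, with means of 25.5 ± 16.2 and 0.726 ± 0.399 FPKM for Sprr1a (SD, n = 3 each). The change of Sprr1a was -4.20 without antibody (adjusted p = 0.003 in limma) and -0.65 with it (adjusted p = 0.567). With antibody the values were near the floor, at 0.384 to 1.16 FPKM in antiPDL1 and 0.0341 to 0.124 in the combination. There log2(FPKM + 1) leaves little room for a change, so the sizes in the arms cannot be compared directly. The difference between the arms for Sprr1a had an unadjusted p of 0.000207 in limma and did not pass after adjustment (adjusted p = 0.496). The count of 9 fell to 5 without polyIC replicate 0 or 2, in both of which cases Sprr1a lost its call.

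The level of the hepatocyte list moved with the groups, and its mean was therefore added to the model as a covariate. The number of called genes fell from 1878 to 441, of which 283 were higher and 158 lower. Cytotoxic effector genes were then higher in 14 of 27 with a median of 1.30, inhibitory receptor genes in 13 of 22, T cell genes in 7 of 24 and cell cycle genes in 2 of 30. Kupffer cell genes were lower in 4 of 24, B cell genes in 3 of 20 and sinusoidal endothelial genes in 0 of 20. Named genes that were no longer called included Cd3e, Slfn5, Ccr8, Il10, Timd4, Vsig4, Mrc1, Cd79a, Fcer2a, Apoc1, Stab2, Saa3, Gpx3 and Xlr, while Gzmk, Pdcd1, Foxp3, Camp, Clec4f, Ccl17 and Cd207 were still called. Apoc1 is itself in the hepatocyte list, so its own level is part of the covariate. The same holds for Trf, Rbp4 and Serpina1b, which were still called. With the covariate the change was 1.36 against 1.56 for Cd3e (adjusted p = 0.0543), -0.68 against -0.73 for Slfn5 (adjusted p = 0.052) and -2.52 against -3.27 for Timd4 (adjusted p = 0.052).

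**Figure D4:**
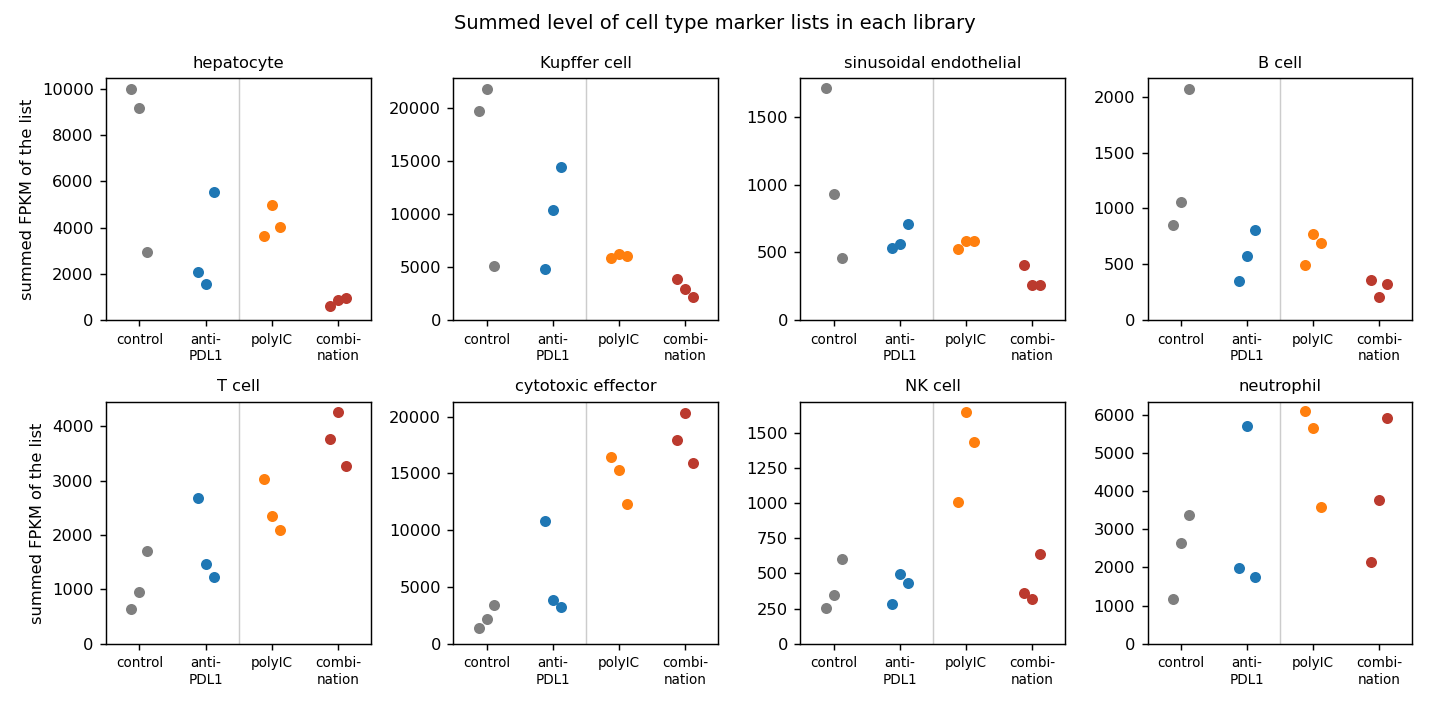
Summed FPKM of the members of 8 marker lists in each of the 12 libraries, in the group order control, antiPDL1, polyIC, combination (points are libraries, and the axis starts at 0). Failed estimates were left out of the sums, and members below the filter were kept. The combination libraries are lowest for hepatocyte genes (612 to 935), and the cytotoxic sums with polyIC, 12310.0 to 20324, lie above the 1364 to 10776 without it.

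Some genes with large changes belonged to none of these lists. Calcb, which encodes a calcitonin gene-related peptide, was at 3.11, 10.9 and 28.1 FPKM with polyIC and 0.0668, 0.15 and 0.704 without (3.21 ± 0.39, adjusted p = 0.00249). Sdcbp2, which encodes the adaptor syntenin-2, was at 15.2, 27.6 and 40.03 FPKM against 1.29, 2.99 and 14.1 (2.53 ± 0.30, adjusted p = 0.00228). Heatr9 was at 3.76, 5.83 and 6.93 FPKM against 0.461, 1.08 and 2.73 (1.59 ± 0.22, adjusted p = 0.00249). Of the largest falls outside the lists, Gpx3, a secreted glutathione peroxidase, changed by -1.81 ± 0.37, the glutamate transporter gene Slc1a2 by -1.87 ± 0.35, Xlr by -1.79 ± 0.35 and Pianp by -1.58 ± 0.29. None of these 7 genes overlapped between the groups, which the rule for naming them required.

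The remaining lists had few calls, beside 7.65% of all genes higher and 8.03% lower. Counts of 1 among the 16, 11 or 9 genes of a list below are near those shares. Of 16 interferon ligand, receptor and signalling genes, Ifng rose and Ifngr2, a subunit of its receptor, fell by 0.55 on the log2 scale. Of 11 plasma cell genes, the regulator gene Prdm1 rose (1.12 ± 0.21) and Sdc1, the gene for CD138, fell (-0.69 ± 0.15). Among 5 eosinophil genes Siglecf and the IL-5 receptor gene Il5ra fell, and among 9 erythroid genes the carbonic anhydrase gene Car2 rose (1.37 ± 0.41) and the erythropoietin receptor gene Epor fell (-1.07 ± 0.32). With single libraries left out, the eosinophil count was 1 to 3, with 1 without control replicate 0 or 1, any polyIC replicate, antiPDL1 replicate 1 or 2, or combination replicate 0 or 1. Both erythroid counts were 0 without control replicate 0 or 1, any polyIC replicate, antiPDL1 replicate 2, or combination replicate 0 or 2. In limma 0 of 10 stellate cell and fibroblast genes passed, with 2 lower at an unadjusted p under 0.05, and 7 fell without control replicate 2. Without that library 1831 of all genes fell, against 962 with it. Of 16 glycolysis genes 0 passed, with 4 higher and 1 lower at an unadjusted p under 0.05.

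Acute phase genes, which the liver raises in inflammation, rose in 3 of 13, namely Saa3, Orm2 and Lcn2, and fell in 1, Lbp. Of all genes 7.65% rose and 8.03% fell, so the 1 lower gene is near that share. Saa3, a serum amyloid made by macrophages as well, was at 69.6, 91.8 and 216 FPKM with polyIC and 2.21, 11.6 and 121 without (2.78 ± 0.64, adjusted p = 0.0171). The count of 1 lower gene was 0 without control replicate 0 or 1, polyIC replicate 0 or 2, or combination replicate 1, and 3 without control replicate 2. The median of the list was 1.15 without antibody and -0.80 with it. Orm2, an orosomucoid gene, was at 6.16 to 11.2 FPKM in the polyIC group and at 1.12 to 1.71 in the combination, against 0.329 to 1.35 without polyIC. Its effect differed between the arms by -2.35 on the log2 scale, which passed over all genes (adjusted p = 0.0445 in limma). The average rise of Orm2, 1.45 ± 0.37, lost its call without control replicate 0 or 1 or any polyIC replicate.

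The arms with and without antibody share no library, so each gives its own estimate of the size of the effect of polyIC. Both came from the same fit, with a shared estimate of the spread of each gene. The p-values of the arms are therefore not independent. Without antibody (polyIC minus control) 295 genes rose (2.46%) and 140 fell (1.17%), 3.63% of the genes tested, with 2655 (22.2%) at an unadjusted p under 0.05. With antibody (combination minus antiPDL1) 12 rose (0.1%) and 3 fell (0.025%), 0.125%, with 1725 (14.4%) at an unadjusted p under 0.05. The 3 that fell were Cd207, Ccl17 and Mgl2, with changes of -3.63, -2.74 and -2.0. The 12 that rose included Il10, Il21, the secreted glycoprotein gene Angptl2 and Gcg, the glucagon gene, with changes of 3.37, 2.67, 2.05 and 4.74, and the last 2 of these were chosen after their values were seen. Of the 295 genes that rose without antibody, 285 had the same sign with it, against 55.6% of all genes, and 207 had that sign with an unadjusted p under 0.05, against 6.31% of all genes. Of the 140 that fell, 133 had the same sign and 77 an unadjusted p under 0.05, against 44.3% and 8.09%. The median effect of the 295 was 1.35 without antibody, where they were called, and 0.70 with it, and that of the 140 was -1.05 and -0.60. Across the 11978 genes, which are not independent replicates, the effects in the arms had a Pearson r of 0.628. Of the 1878 genes of the additive model, 398 were called without antibody, 15 with it and 1472 in neither arm. The difference between the arms passed for 2 genes, 0.0167%. One was Orm2, lower with antibody (0.00835%), and the other the small RNA gene Mir760, higher with antibody (0.00835%). An unadjusted p under 0.05 for the difference was reached by 288 genes, 2.4%. Mir760 was at 4.21 to 10.9 FPKM in control and listed at 0 in the other 9 libraries, which falls just short of the threshold of 5 FPKM for leaving a gene out.

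These counts too rested on single libraries. Without antibody the 435 became 93, 45 or 1871 without control replicate 0, 1 or 2, and 42, 154 or 110 without polyIC replicate 0, 1 or 2. They became 917 without antiPDL1 replicate 2, and 256 or 281 without combination replicate 1 or 2. With antibody the 15 became 331 without antiPDL1 replicate 0 and 276 without control replicate 2. They became 8 without control replicate 0, polyIC replicate 0 or antiPDL1 replicate 1, 9 without control replicate 1, 7 without polyIC replicate 2, and 0 without antiPDL1 replicate 2 or combination replicate 1. Without combination replicate 0 or 2 they became 5 or 1. The 2 genes of the difference became 5 without control replicate 0, 1 without control replicate 1, control replicate 2 or polyIC replicate 2, and 0 without any of the other 8 libraries.

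A panel of 24 single genes was also tested by exact permutation of the polyIC labels within each antibody arm (two-sided, 400 arrangements). The smallest p these allow, 0.005, or 0.0133 adjusted over the panel, was reached by Ifng, Pdcd1, Gzmb, Gzmk, Foxp3, Clec4f, Timd4, Cx3cr1 and Krt18. Cd8a and Mki67 had an exact p of 0.01 (0.0218 adjusted). Exact p-values of the other panel genes were larger, from 0.07 for Cd4 to 0.905 for Ifih1, with Isg15 at 0.77.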

How the data were processed

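The deposited table holds an FPKM value per gene for each of the 12 libraries. The submitters' processing notes name Cuffdiff and the mm9 build as used by the authors, and the unit was inferred from the values, because no label names it. Of 24319 entries, 22 listed at 0 in every library of a group but at 5 FPKM or more in every library of another were left out as failed estimates (9 protein-coding genes, among them Actb, Apoe and Cd74, and 13 small RNA genes), and 5460 were at 0 everywhere. The FPKM totals were 476111 to 677535, and the steps of low values gave only a rough relative depth (0.499 to 1), so the reads behind each value are not known. Genes at 1 FPKM or more in 3 or more libraries (11978) were tested with limma 3.58.1 (trend) on log2(FPKM + 1), the deposited values being linear, with polyIC and antibody as additive terms; arms and their difference came from a fit of the 4 groups. Fold changes are on that log2 scale, which understates those of low genes. P-values were Benjamini-Hochberg adjusted over all genes tested. Errors beside log2 changes are standard errors.

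The script was tested on simulated data with known changes. The comparison and the 35 gene lists (645 genes, 36 in more than 1 list) were chosen with earlier results of these data known. Genes named are the 12 largest called rises and 12 largest called falls without overlap between libraries with and without polyIC (predicted genes and small RNAs left out). To these were added, of each list, up to 4 called members with the largest change in the direction with more calls and up to 2 in the other, the genes called for the difference between arms, a panel of 24 and the failed estimates. Replicate numbers were not used to pair libraries in the main model. Alternatives tried were another pseudocount, other filters, quantile and median-of-ratios scaling, array weights, a replicate block, single libraries left out, no antibody term and a hepatocyte covariate. Promoter letters came from RefSeq (GRCm38.p6), not from the build of the files.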

Additional observations from a re-analysis of the deposited data

Results flagged for a closer look

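Within the 6 libraries with or the 6 without polyIC, a highest or lowest library was set apart by Dixon's criterion in 13 of 332 sets of values tested, where chance sets apart about 1 in 20. AntiPDL1 replicate 0 was the high library without polyIC for 5 lymphocyte and monocyte genes. It held Ccl4 at 585.3 FPKM (next 71.74), Ccl3 at 207.3 FPKM (next 38.01) and Cx3cr1 at 40.52 FPKM (next 21.49). It also held Prdm1, a regulator of effector lymphocytes, at 12.11 FPKM (next 5.23) and Nr4a2 at 9.268 FPKM (next 1.834). The eosinophil list had its lowest mean log2(FPKM + 1) without polyIC in the same library, 2.29 (next 2.979).

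Control replicate 2 was the high library without polyIC for Ccr7 at 117.4 FPKM (next 48.08), Ccl22 at 45.9 FPKM (next 29.11) and the integrin gene Itgb3 at 15.03 FPKM (next 6.877). Its naive and memory T cell list had a mean log2(FPKM + 1) of 5.58 (next 4.639). AntiPDL1 replicate 1 held Ifi44 at 24.62 FPKM (next 15.28), and control replicate 0 held Il6ra at 41.54 FPKM (next 31.14). With polyIC, polyIC replicate 2 had the lowest mean of the cytotoxic list, 6.597 (next 6.897).

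The effect of polyIC differed between the antibody arms for 2 genes in limma, by 3.035 for Mir760 and by -2.349 for Orm2 on the log2 scale.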

How the results depend on the processing

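The 1878 genes called were 1016 with a mean of at least 5 FPKM required, 3736 with array weights, 2822 without control replicate 2 and antiPDL1 replicate 2 together, 654 with no antibody term and 441 with the hepatocyte covariate, and 725 to 2958 when single libraries were left out. The 435 called without antibody were 209 with a mean of at least 5 FPKM, 794 with quantile scaling, 3437 with array weights and 2898 without the 2 doubted libraries, and 42 to 1871 when single libraries were left out. The 15 called with antibody were 31 with no filter, 6 with a mean of at least 5 FPKM, 822 with array weights, 87 without the 2 doubted libraries and 0 in limma with only the groups compared (1779 at an unadjusted p under 0.05), and 0 to 331 when single libraries were left out. The 2 genes of the difference were 0 with a pseudocount of 0.1 or a mean of at least 5 FPKM, 12 with array weights or with failed estimates kept, 5 without the 2 doubted libraries, and 0 to 5 when single libraries were left out. The cause was not tested. With the replicate number as a block, 2011 genes were called in all, 428 without antibody, 1 with it and 3 for the difference. The 18 pairs of libraries that share a number had correlations of -0.29 to 0.32, and 6 of 12 libraries correlated best with their own number. The 36 pairs with different numbers had correlations of -0.31 to 0.38. A correlation above 0.1 was reached by 4 of the 18 pairs and 4 of the 36. These values do not settle whether the numbers pair libraries. Of 113 called genes named, 78 kept their call with any 1 library left out, 47 in all other alternatives, and 0 reversed. The reads behind each FPKM value are not known, which limits the precision of low genes.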
